A study of Arabidopsis thaliana with 6 samples.

Results

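The miRNAs described here are those of Arabidopsis thaliana whose family number is not on a list of numbers set aside, which holds the conserved families and some younger ones such as miR861 and miR5026, and whose mature sequence is 21 nt or shorter. They were taken from the deposited count table by that list and by length. They are 138 of its 294 mature sequences, in 109 families. No count entered that rule, but the list was chosen with earlier results of these data known. The word lineage-specific is a label for whatever remained after the listed families were set aside, and the age of each family was not checked. Seedlings in shaken liquid medium received 1 µM epiBL (epibrassinolide, a steroid hormone of the brassinosteroid group, which drives cell elongation in plants) or only its solvent (control), and were collected 90 min later, with 3 libraries for each treatment. All 6 libraries came from bri1-5 plants, mutant in the brassinosteroid receptor BRI1, that express a wild-type BRI1-Flag protein from the native promoter of the gene. Plants without the transgene are not analysed here. The table holds only miRNAs, so the labelled tissue could not be checked against marker mRNAs. In whole seedlings, fewer cells that make a miRNA and less of it per cell cannot be told apart.

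Plant miRNAs are cut from the stem of a hairpin precursor by a Dicer-like enzyme, and 1 strand of the resulting duplex (the guide) enters an ARGONAUTE protein that represses matching mRNAs, while the other (the passenger) is usually lost. Young families are thought to arise from inverted gene duplications and from chance hairpins, to be encoded by single genes, to be weakly expressed and often to have no known target. The first base of a guide influences its ARGONAUTE partner, with U favouring AGO1, A favouring AGO2 and AGO4, and C favouring AGO5. For a few of the families targets are well established, among them the MADS-box factor AGL16 for miR824, the DNA methyltransferases CMT3 for miR823 and MET2 for miR773, and DC1-domain zinc-finger proteins for miR822.

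The sequences that carry most of the reads, or on which the comparisons below turn, are given as the table lists them, 5′ to 3′, with T in place of U and with the seed (bases 2 to 8) in capitals. The first 10 are the most abundant, miR833b-5p to miR838-3p are those with the smallest p for epiBL in either direction, and the final pair shares bases with the ends of tRNAs.
miR824-3p: cCTTCTCAtcgatggtctaga
miR822-5p: tGCGGGAAgcatttgcacatg
miR447a-3p: tATGGAAGaaattgtagtatt
miR824-5p: tAGACCATttgtgagaaggga
miR829-5p: aCTTTGAAgctttgatttgaa
miR781a/b-5p: tTAGAGTTttctggatactta
miR779-5p: tGATTGGAaatttcgttgact
miR823-3p: tGGGTGGTgatcatataagat
miR822-3p: tGTGCAAAtgctttctacagg
miR860-3p: tCAATAGAttggactatgtat
miR833b-5p: tGTTTGTTgacatcggtctag
miR866-3p: aCAAAATCcgtctttgaaga
miR859-5p: tCTCTCTGttgtgaagtcaaa
miR5595a-5p: aCATATGAtctgcatctttgc
miR5650-5p: tTGTTTTGgatcttagataca
miR869-3p: tCTGGTGTtgagatagttgac
miR838-3p: tTTTCTTCtacttcttgcaca
miR8175-3p: gATCCCCGgcaacggcgcca
miR845a-3p: cGGCTCTGataccaattgatg

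Among the 138 sequences 125 were 21 nt long, 12 were 20 nt and 1 was 19 nt. A first base T (U in the RNA) was found in 76 of them and a first base A in 49. The share with A, 35.5%, compares with 12.8% of the 125 sequences of the listed families. It was 25.8% of the 31 sequences of 22 to 24 nt from the same remainder of families. C opened 8 sequences and G opened 5. Counted by reads the order was different, because miR824-3p opens with C: 47.9% of the reads began with T, 45.6% with C and 5.93% with A. Seeds were almost all distinct, with 1 shared by a pair of members (GAGAGAA, in miR1886-5p and miR5640-5p). Another 3 were shared with sequences outside the set, of which GGAGAAG of miR835-3p is also the seed of miR164a/b-5p and miR164c-5p. The closest pair was miR773a-3p and miR773b-3p, which differ by 1 base (C5A, with the base of miR773a-3p written first and the 5′ terminal base as position 1). miR773a-3p had 101 reads and miR773b-3p had 0.

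The libraries held 2050074 to 4482479 reads identical to a mature miRNA. A count of 0 allows up to 3 reads, which is 1.68 CPM (counts scaled to the library total, with the total adjusted by TMM factors) in the shallowest library, epiBL replicate 3, and this limit covers counting error only, since PCR copies could not be removed. At this depth 109 of the 138 sequences had a read in at least 1 library, 55 had a read in all 6 and 29 had none. The spread was wide, with 10 sequences above 1000 reads over the 6 libraries, 20 over 100 and up to 1000, 34 between 11 and 100, and 45 with 1 to 10. The median was 9 reads, against 1405 for the sequences of the listed families and 21 for the 31 sequences of 22 to 24 nt from the same remainder of families. Together the 138 sequences took 74264 reads, and miR824-3p alone took 44.2% to 45.4% of them in every library.

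Reads were unevenly spread over the range of family numbers, with no steady order. The families miR822 to miR870 held 38 sequences and 82.6% of the reads, of which miR824-3p alone gave 33341 of 61311. The 5 sequences of miR401 to miR447 held 7.65% and the 10 of miR771 to miR783 held 5.84%. The 18 sequences of miR1886 to miR4245 held 0.899%, the 51 of miR5012 to miR5999 held 2.31% and the 16 above miR8000 held 0.746%. No sequence numbered miR1886 or above had over 1000 reads. Of the 5 sequences numbered miR401 to miR447, only miR447a-3p had any read, while miR406-3p, miR407-5p, miR414-5p and miR447c-5p had none. The other members without an exact read included miR773b-3p, miR776-3p, miR779-3p, miR862-3p, miR864-5p, miR866-5p, miR869-5p, miR870-5p and miR854a/b/c/d/e-5p. All 29 unread members were named in the table for at least 1 library, which follows from the rule, since it picks members by their name. In the whole table a name was never missing where an exact read was counted, and 171 combinations of a member and a library carried a name with an exact count of 0. What those names stand for is not stated in the file.

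**Figure D1:**
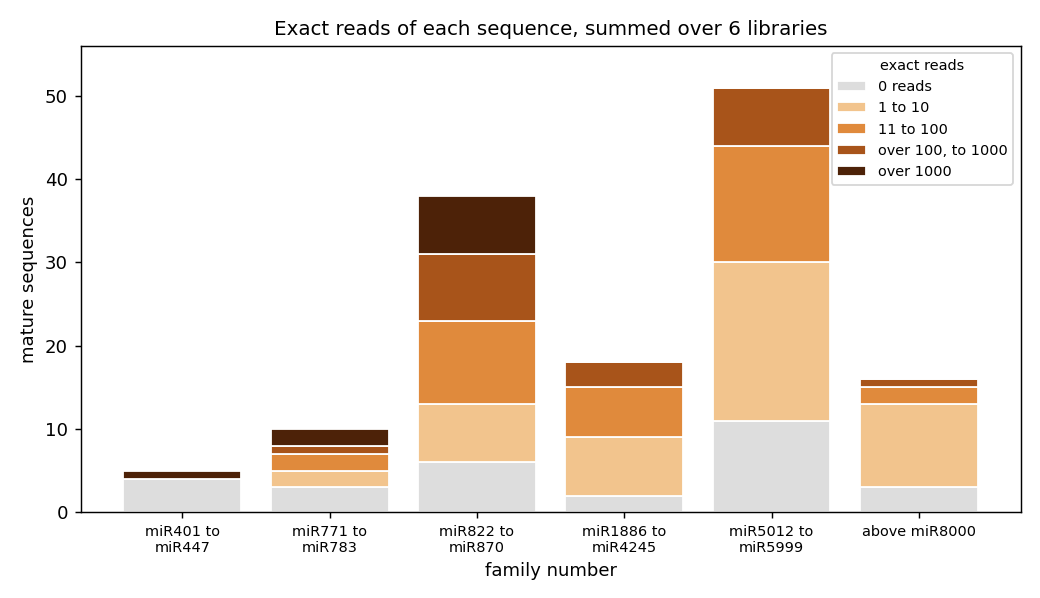
Number of mature sequences (vertical axis) in each range of family numbers (horizontal axis), coloured by exact reads summed over the 6 libraries. The 10 sequences with over 1000 reads all lie in families numbered up to miR870, and most sequences numbered above have 10 reads or fewer or between 11 and 100.

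Of the 138 sequences, 105 matched the TAIR10.1 nuclear or organelle genome at a single place and 33 at 2 to 15 places, and all 138 had a match inside an annotated precursor. Of the 105, 55 lay outside protein-coding genes, 25 in an intron and 10 in an untranslated exon of a protein-coding gene on the same strand, and 15 opposite such a gene. miR838-3p, at chr1:28635-28655 (plus strand), lay in an intron of DCL1, which encodes the Dicer-like enzyme of the miRNA pathway. miR824-5p and miR824-3p lay 5′ and 3′ in MIR824, at chr4:12625128-12625148 and chr4:12625721-12625741 (plus strand), in a precursor of 689 bases. miR822-5p (chr5:897287-897307, minus strand) and miR822-3p (chr5:897067-897087, minus strand) came from a precursor of 337 bases opposite an intron of AT5G03553. miR823-3p (chr3:4496826-4496846, minus strand) and miR829-5p (chr1:11834153-11834173, minus strand) lay outside protein-coding genes. miR860-3p (chr5:9098876-9098896, plus strand) overlapped an untranslated exon of FC1, and miR833b-5p (chr1:29525264-29525284, minus strand) lay opposite an intron of AT1G78476.

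Several members could not be given a single origin. miR447a-3p matched MIR447a and MIR447b at chr4:1528148-1528168 and chr4:1535440-1535460 (minus strand). miR781a/b-5p matched precursors on opposite strands, at chr1:7423523-7423543 (plus) and chr1:7423585-7423605 (minus), and miR5663-3p and miR5663-5p are reverse complements of each other over all 21 bases. The 20 bases of miR8175-3p equal the last 17 bases of 22 of the 28 annotated tRNA-Asp genes followed by CCA, the end that is added to every mature tRNA, so its reads cannot be told apart from the 3′ ends of that tRNA. It was the 12th most abundant member, with 22.4, 24.6 and 15.7 CPM in epiBL libraries and 15.4, 21.3 and 22.3 CPM in control libraries. miR845a-3p, of a family that matches the primer binding site of retrotransposons, held the last 10 bases of 8 tRNA-Met genes and CCA from its base 2 on, and its other bases did not follow the tRNA.

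Levels are given as normalised counts (CPM on the same TMM scale). Among the 294 sequences of the table miR824-3p ranked 26th and was the most abundant member. It had 1455, 1461 and 1449 CPM in epiBL libraries and 1538, 1432 and 1528 CPM in control libraries. miR822-5p came next with 601, 567 and 629 CPM in epiBL libraries and 631, 664 and 623 CPM in control libraries. Both ranges overlapped between the groups. miR447a-3p, of a family that targets 2-phosphoglycerate kinases, had 257, 249 and 244 CPM in epiBL libraries and 298, 229 and 231 CPM in control libraries. miR824-5p, the strand that RefSeq notes as the mature miRNA directed at AGL16, had 176, 227 and 189 CPM in epiBL libraries and 204, 184 and 204 CPM in control libraries. Neither separated the groups. miR829-5p had 129, 120.0 and 147 CPM in epiBL libraries and 152, 107 and 140 CPM in control libraries. miR781a/b-5p had 88.3, 102 and 105 CPM in epiBL libraries and 112, 80.9 and 107 CPM in control libraries. In both, the control libraries spanned the whole range of the epiBL libraries, with control replicate 2 lowest.

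miR779-5p had 90.6, 98.4 and 84.4 CPM in epiBL libraries and 82.0, 89.3 and 80.0 CPM in control libraries. miR823-3p, which targets the chromomethylase CMT3, had 48.1, 48.5 and 54.2 CPM in epiBL libraries and 46.0, 51.4 and 46.3 CPM in control libraries. The groups overlapped in both. miR822-3p, the scarcer strand of MIR822, had 43.3, 49.9 and 47.5 CPM in epiBL libraries and 55.9, 42.1 and 53.8 CPM in control libraries, which again overlapped. miR860-3p was the single member of the 10 most abundant whose groups lay apart, with 43.3, 43.9 and 41.9 CPM in epiBL libraries and 59.9, 49.6 and 52.9 CPM in control libraries. These 10 took 91.1% to 91.8% of the members' reads in every library.

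**Figure D2:**
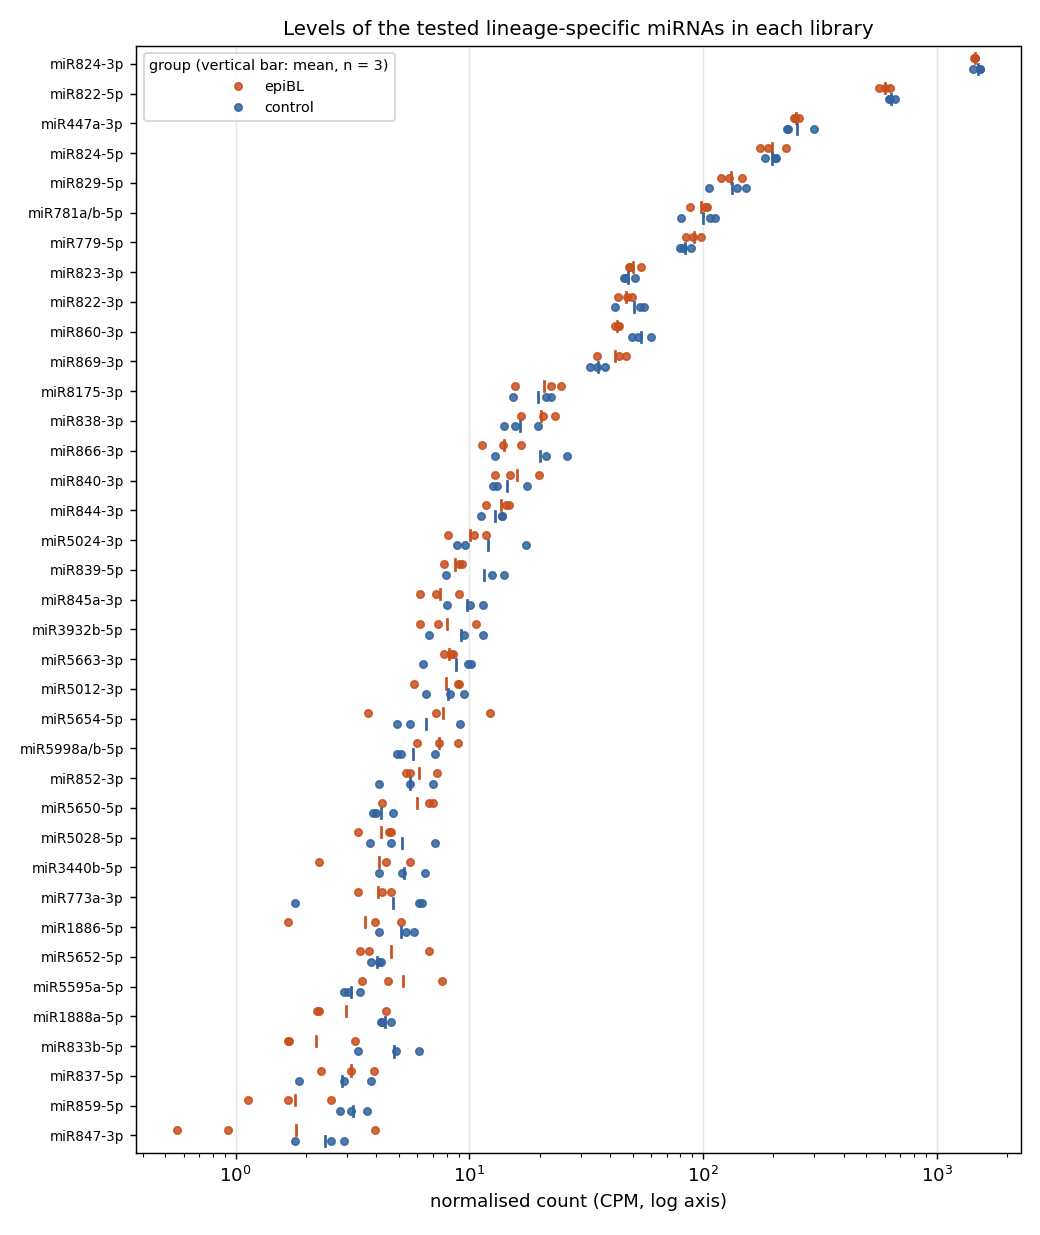
Normalised counts (CPM, log axis) of the 37 members that passed the filter on low counts, ordered by mean, with epiBL libraries drawn above control libraries for each miRNA and a vertical bar at each group mean (n = 3). The spread between libraries widens towards the bottom, and the groups overlap for 33 of the 37.

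Rows of 1 precursor name were paired by their 5p and 3p labels, and 31 pairs held at least 1 member. For 21 pairs with over 20 reads, 12 had more than 90% of the reads on 1 row. The row labelled 3p was the more abundant in 9. The labels were not always the arms, since miR779-5p and miR869-5p, whose pairs are among the 12, lie in the 3′ part of their precursors. For rows that are not members the position was not checked. At MIR824 the 3p arm had 7.44 times the reads of the noted 5p guide, a share of 88.2% (exact 95% binomial interval 87.8 to 88.5). This interval, like the others given for arm shares, pools the reads of 6 libraries and covers counting error only, and single libraries can lie outside it. The share was 89.2%, 86.6% and 88.5% in epiBL libraries and 88.3%, 88.6% and 88.2% in control libraries, so the excess of that arm was present in all 6. At MIR447a the row labelled 3p had 33.0 times the reads of the 22-nt row labelled 5p. The 22-nt sequence is the one that RefSeq notes as the mature miRNA of MIR447a. Whether it lies on the 5′ arm was not checked, so this ratio may not compare the 2 arms. At MIR822 the noted 5p guide had 12.6 times the reads of the 3p arm.

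Set against the mature sequence that RefSeq notes for each gene, 15 precursors had the noted sequence and another member as rows, and in 5 of them the other member had more reads. Those were MIR824, MIR447a, MIR447b (which shares its reads with MIR447a), MIR779 and MIR851, the last with only 3 reads against 1. At MIR829, MIR775, MIR844, MIR447c, MIR852 and MIR780 the noted sequence was not a row, so it was not counted. The reads of miR829-5p and the other members there are those of a different sequence. At MIR779 the noted sequence, miR779-3p, had 0 reads in all 6 libraries, whereas miR779-5p had 1974. Both miR779-5p and the unread miR869-5p lie in the 3′ part of their annotated precursors despite the 5p label, as do miR780-5p and 1 of the 2 matches of miR5595a-5p, so the labels of these 4 go against their position. At MIR840, of which the row labelled 5p has 22 nt, reads were split, with 42.0% (exact 95% binomial interval 38.6 to 45.4) on the 3p member. Its 3p share was 40.2%, 57.0% and 39.7% in epiBL libraries and 32.6%, 37.8% and 44.5% in control libraries, which overlapped. At MIR5654 the 3p share was 32.3% (26.2 to 38.9). By library it was 31.6%, 31.1% and 29.0% in epiBL libraries and 32.8%, 19.2% and 43.9% in control libraries, so the control libraries spread beyond the interval on both sides.

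The ratio of the row labelled 5p to the row labelled 3p was tested with limma for 5 pairs with a member. They were among 45 pairs in which both rows passed the filter, and 2.22% of the 45 were called. At MIR447a, MIR840 and MIR5654 a row of the pair is not a member and its position was not checked, so these ratios compare labels. The log2 ratio of 5p to 3p at MIR824 was -2.89 ± 0.184 in epiBL libraries and -2.92 ± 0.0309 in control libraries (SD, n = 3 each), a difference of 0.03 (SE 0.16, limma adjusted p = 0.916). At MIR822 the difference was 0.00 (SE 0.19, limma adjusted p = 0.985), at MIR447a -0.19 (SE 0.19, limma adjusted p = 0.591) and at MIR5654 0.03 (SE 0.35, limma adjusted p = 0.955). MIR840 had a log2 ratio of 0.26 ± 0.569 in epiBL libraries and 0.69 ± 0.364 in control libraries, a difference of -0.44 (SE 0.30, limma adjusted p = 0.403). None of the 5 passed, and 0 had an unadjusted p under 0.05.

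**Figure D3:**
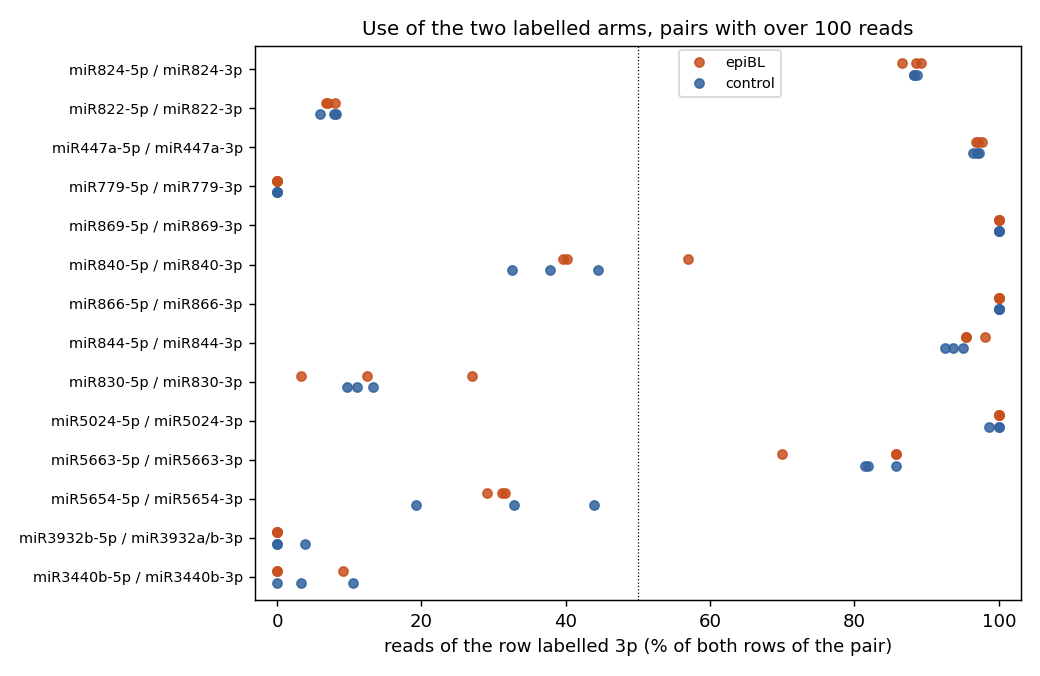
Share of reads on the row labelled 3p (horizontal axis, percent of both rows) for each pair with over 100 reads, 1 point per library, epiBL above control. The share at MIR824 stays between 86.6% and 89.2% and that at MIR822 between 5.96% and 8.14%, while MIR840 and MIR5654 have many reads on both rows.

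The comparison of epiBL with the solvent asks which miRNAs respond to the hormone within 90 min. No member passed: in edgeR's quasi-likelihood test, fitted to all 148 sequences with enough counts and adjusted by Benjamini-Hochberg, 0 of the 37 members tested had an adjusted p under 0.05, against 8.11% of all sequences tested (0 members higher with epiBL against 2.70%, and 0 lower against 5.41%). The smallest adjusted p among members was 0.145. At an unadjusted p under 0.05 there were 2 members, against 23.6% of all tested (0 higher with epiBL against 10.1%, and 2 lower against 13.5%). At that unadjusted threshold DESeq2 gave 0 members, against 23.0% of all sequences, and limma-trend gave 2, against 25.0%. The 37 members had a median log2 fold change of -0.04, against 0.00 for all 148, with 15 above 0 and 22 below, where all sequences had 75 above and 73 below. These signs depended on the scaling, with 17 above and 20 below under RLE factors, 13 and 24 under upper-quartile factors and 8 and 29 with total counts only. The median was 0.02 without control replicate 3. The 101 members that were not tested had at most 54 reads each, and 72 of them had at least 1. The filter keeps a miRNA that is high in either group, so the 37 are not a sample of all 138. The tested members were less abundant than the tested sequences of the listed families (median of mean CPM 8.64 against 131), and their median SE was 0.27 against 0.12, so smaller changes could be seen in the listed families.

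For 10 members the 95% interval of the fold change lay wholly within 1.5-fold in either direction. They were the 9 most abundant, from miR824-3p to miR822-3p, and miR869-3p. The fold of miR824-3p was 0.970 (95% interval 0.852 to 1.10), that of miR822-5p 0.936 (0.815 to 1.07) and that of miR824-5p 1.00 (0.845 to 1.19). For miR447a-3p it was 0.990 (0.835 to 1.17), for miR779-5p 1.09 (0.923 to 1.30) and for miR823-3p 1.04 (0.858 to 1.27). In 26 of the 37 members the interval lay within 2-fold, and in the others it reached 2-fold in at least 1 direction.

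**Figure D4:**
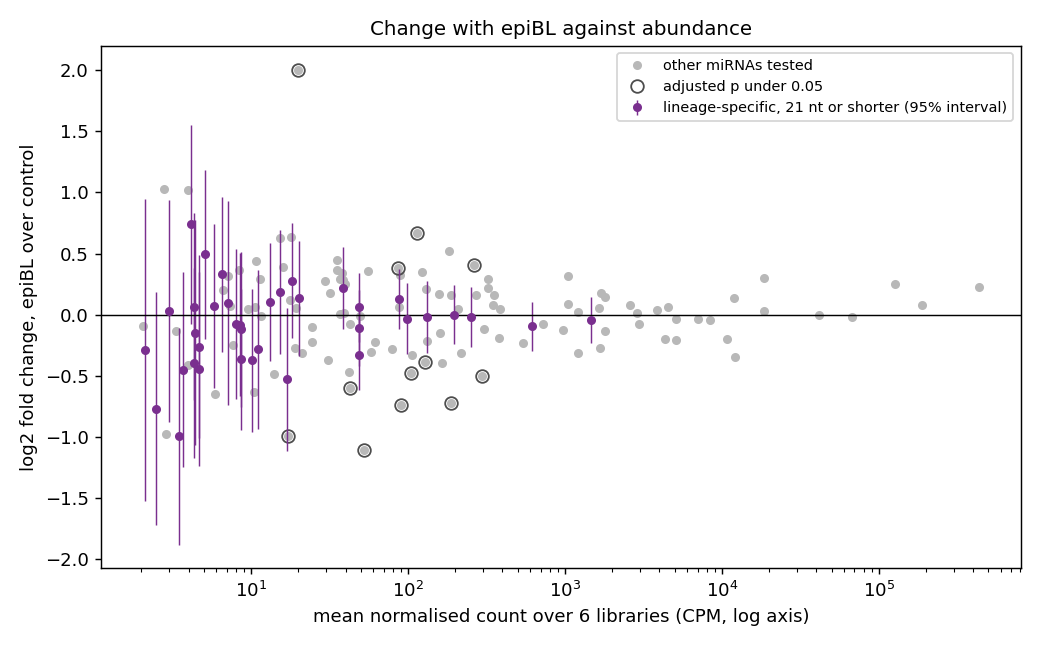
Log2 fold change, epiBL over control, against mean normalised count (CPM, log axis) for all 148 sequences tested, with 95% intervals for the 37 members and rings around the 12 sequences with an adjusted p under 0.05. No member is ringed, and 35 of the 37 intervals include 0.

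The members with the smallest p that were lower with epiBL were these. miR860-3p averaged 43.0 ± 0.994 CPM in epiBL libraries and 54.1 ± 5.28 CPM in control libraries (SD, n = 3 each). Its log2 fold change was -0.33 (SE 0.13, edgeR adjusted p = 0.145), and the 3 epiBL libraries lay below the 3 control libraries. miR833b-5p had 1.70, 3.25 and 1.68 CPM in epiBL libraries and 3.35, 6.08 and 4.85 CPM in control libraries, a log2 fold change of -0.99 (SE 0.41, edgeR adjusted p = 0.154). Its counts were 6, 14 and 3 reads in epiBL libraries and 15, 26 and 20 reads in control libraries, and the highest epiBL value lay just under the lowest control value. miR866-3p had 16.7, 11.4 and 14.0 CPM in epiBL libraries and 21.2, 12.9 and 26.2 CPM in control libraries, which overlapped, with a log2 fold change of -0.53 (SE 0.27, edgeR adjusted p = 0.226). miR859-5p, of a family that targets F-box proteins, had 1.13, 2.55 and 1.68 CPM in epiBL libraries and 3.13, 2.80 and 3.64 CPM in control libraries, a log2 fold change of -0.77 (SE 0.44, edgeR adjusted p = 0.290). Its groups did not overlap, but the 59 reads over all libraries were near the limit of the filter.

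Of those higher with epiBL, miR5595a-5p had 7.64, 3.48 and 4.47 CPM in epiBL libraries and 2.91, 3.04 and 3.39 CPM in control libraries, a log2 fold change of 0.74 (SE 0.38, edgeR adjusted p = 0.226). Its 3 epiBL libraries lay above the 3 control libraries, and epiBL replicate 1 was above both others. Without that library the log2 fold change was 0.32. Over all 6 omissions of 1 library it ran from 0.32 to 1.05 for miR5595a-5p and from -0.39 to -0.25 for miR860-3p. It ran from -1.47 to -0.75 for miR833b-5p and from -1.25 to -0.45 for miR859-5p. The range was -0.77 to -0.29 for miR866-3p and 0.29 to 0.74 for miR5650-5p. For the miRNAs described next it ran from 0.16 to 0.35 for miR869-3p and from 0.17 to 0.43 for miR838-3p. miR5650-5p had 4.25, 6.96 and 6.71 CPM in epiBL libraries and 4.69, 3.97 and 3.88 CPM in control libraries, a log2 fold change of 0.49 (SE 0.32, edgeR adjusted p = 0.355). miR869-3p had 43.6, 35.0 and 47.0 CPM in epiBL libraries and 35.3, 33.0 and 38.1 CPM in control libraries, a log2 fold change of 0.22 (SE 0.16, edgeR adjusted p = 0.400). miR838-3p, cut from the intron of DCL1 and linked to feedback on that gene, had 23.2, 16.7 and 20.7 CPM in epiBL libraries and 19.7, 14.0 and 15.8 CPM in control libraries, a log2 fold change of 0.28 (SE 0.22, edgeR adjusted p = 0.450). The groups overlapped for miR5650-5p, miR869-3p and miR838-3p. Among the 37 members the groups lay apart in 4, against 27.7% of all sequences tested. Of the 4, 1 was higher with epiBL, against 10.1% of all, and 3 were lower, against 17.6%.

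**Figure D5:**
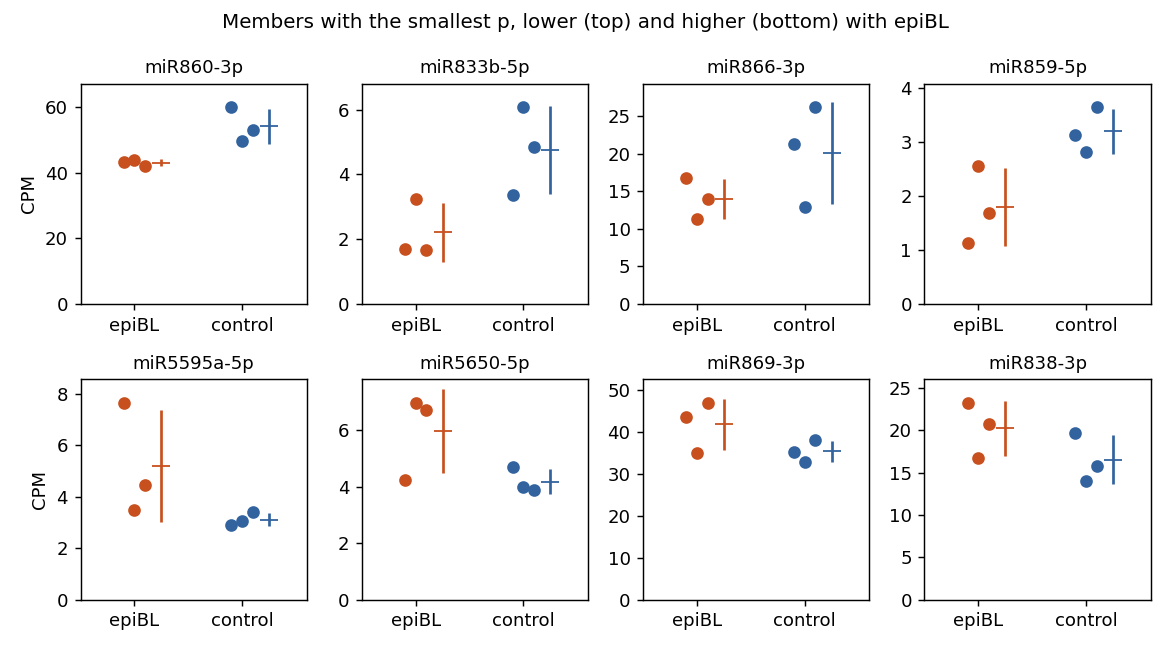
Normalised counts (CPM) in each library for the 4 members with the smallest p in each direction, lower with epiBL in the top row and higher in the bottom row, with epiBL left of control and the mean ± SD beside the points (n = 3). Groups are apart for miR860-3p, miR833b-5p, miR859-5p and miR5595a-5p and overlap for the others.

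Grouped by the targets known for their families, 0 members passed in any group, against 8.11% of all sequences tested. With 1 to 4 tested members in a group these counts say little. Of 5 sequences of families that act on developmental regulators or the miRNA machinery, 4 were tested and 0 passed, with a median log2 fold change of -0.02. They are the arms of MIR824, miR838-3p and miR847-3p, whose family targets the auxin repressor IAA28, while miR834-3p, whose family targets the COP1-interacting protein CIP4, had 2 reads. A list named for metabolism and transport held 7 sequences, of which 3 were tested and 0 passed, with a median of -0.10, the value of miR822-5p. Those tested were the arms of MIR822 and miR447a-3p. miR822-3p and miR447a-3p, like miR824-3p above, are not the mature sequence that RefSeq notes for their gene. The medians of -0.02 and -0.10 therefore mix noted sequences with others. The targets given above for miR822 are DC1-domain zinc-finger proteins, so the name of the list does not describe all of it. miR780-3p, of a family that targets the cation/proton exchanger CHX18, had 17 reads and miR775-3p, of the family that targets a galactosyltransferase, had 1. Neither is the mature sequence that RefSeq notes for its gene: miR775-3p lacks the last base of it, and miR780-3p is shifted by 1 base. The noted sequences were not counted, so these reads do not give their levels. Of 3 sequences of families directed at DNA methylation enzymes, miR823-3p and miR773a-3p were tested and 0 passed. miR773a-3p had 4.25, 4.64 and 3.35 CPM in epiBL libraries and 1.79, 6.08 and 6.30 CPM in control libraries, a log2 fold change of -0.15 (SE 0.43, edgeR adjusted p = 0.906), with control replicate 1 far below the other controls. Without 1 library it ran from -0.55 to 0.11, and it was above 0 without control replicate 2 or control replicate 3. miR845a-3p had 9.06, 7.19 and 6.15 CPM in epiBL libraries and 11.4, 10.1 and 8.0 CPM in control libraries, a log2 fold change of -0.36 (SE 0.27, edgeR adjusted p = 0.407), and its groups overlapped. Without 1 library it ran from -0.49 to -0.24. Of 3 sequences of F-box and defence families, only miR859-5p was tested, and miR774a-3p and miR843-5p had 14 and 9 reads.

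The 5 untested members with most reads had 42 to 54 reads over the 6 libraries. miR3434-5p had 1.42, 2.09 and 2.80 CPM in epiBL libraries and 1.56, 4.44 and 2.18 CPM in control libraries. miR5642a/b-3p had 1.70, 2.09 and 2.80 CPM in epiBL libraries and 2.91, 2.34 and 0.970 CPM in control libraries. miR8179-5p had 1.42, 3.02 and 2.80 CPM in epiBL libraries and 1.79, 1.64 and 1.21 CPM in control libraries. All 3 overlapped between the groups. miR5640-5p had 2.55, 1.62 and 1.68 CPM in epiBL libraries and 1.34, 3.04 and 1.21 CPM in control libraries, and miR5637-5p had 1.98, 0.464 and 1.68 CPM in epiBL libraries and 2.91, 2.80 and 1.21 CPM in control libraries. These also overlapped. At the edge of the filter miR847-3p was tested with 50 reads and miR3434-5p was not with 54.

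As a share of all counts the members took 0.304%, 0.339% and 0.286% in epiBL libraries and 0.346%, 0.353% and 0.353% in control libraries, means of 0.310% ± 0.0272 and 0.351% ± 0.00406 (SD, n = 3 each). The 3 epiBL libraries lay below the 3 control libraries. Of the counts outside the 5 most abundant miRNAs of the table, the members took 2.24%, 2.29% and 2.22% in epiBL libraries and 2.35%, 2.22% and 2.33% in control libraries, which overlapped. The 2 shares therefore differ in whether the groups overlap, and the part of those 5 miRNAs in it was not tested.

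The authors' deposited table gives its own unadjusted p for epiBL over control, and 3 members had one under 0.05, against 14.3% of all 294 sequences. In the authors' deposited table these were miR860-3p (signed fold -1.25, p = 0.0322), miR833b-5p (signed fold -1.99, p = 0.0128) and miR5014a-3p (signed fold 3.35, p = 0.0256), where a negative sign means lower with epiBL. After Benjamini-Hochberg adjustment of the p of the authors' deposited table over 294 sequences 0 members were under 0.05, against 4.08% of all sequences. miR5014a-3p was not tested in edgeR's fit, and its name was chosen after its values were seen. It had 3, 6 and 9 reads in epiBL libraries and 3, 4 and 1 reads in control libraries, and its highest value, 5.03 CPM, was that of the shallowest library.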

How the data were processed

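Per the labels' protocols, the mirVana kit was used to extract total RNA including small RNA, and TruSeq small RNA libraries were read on an Illumina GAIIx. The authors deposited 1 table of raw counts. Per the file headers, only reads identical to a mature miRNA enter the counts, and 1 row stands for 1 mature sequence. The submitters' processing notes name TAIR10; the miRNA database, the trimming and the alignment program: not given in the sources used here. Counting exact reads leaves out trimmed, extended or edited forms. The deposited p-value is an unadjusted one that, per the file headers, came from a test named EDGE using tagwise dispersions, and the deposited signed fold is treated as a score. Those headers compare 0 with 90 min, but 90 min is the time of both groups in the labels, and the labels were followed. 0 columns of samples were left out.

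Counts were fitted in R 4.3.3 with edgeR 4.0.16 (filterByExpr with a minimum count of 10 and total of 15, TMM, robust quasi-likelihood F test, Benjamini-Hochberg over all sequences tested, threshold 0.05). Each standard error (SE) is the size of the fitted log2 difference over the root of its F statistic. Arm ratios, log2 of counts plus 0.5 for rows paired by their 5p and 3p labels, were tested with limma 3.58.1. DESeq2 1.42.0, limma-trend, other scalings and filters, a replicate block and leaving out each library were alternatives. Python 3.11.15 and pandas 2.3.3 were used for tables. Sequences were matched exactly to TAIR10.1 and annotated with RefSeq, since the deposited table gives no coordinates, and positions count from 1. The fit was tested on simulated counts. The members and the lists of families were chosen with earlier results of these data known. miRNAs named with values are members with an adjusted p under 0.05, the 10 most abundant, the 4 of lowest p for each direction, the most abundant of each target list and the 5 untested ones with most reads; miR773a-3p, miR8175-3p, miR5014a-3p and members named for arms or loci were added after their values were seen. Replicates are labelled biological, without saying whether cultures were separate, so the p-values rest on the spread among these libraries alone, which may be technical. No 2 libraries of a group agreed within sampling noise.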

Additional observations from a re-analysis of the deposited data

How the results depend on the processing

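No member passed the threshold under any of the alternatives of scaling, filter, tool, replicate block, an adjusted p under 0.1 or leaving out 1 library, whereas at an unadjusted p under 0.05 there were 2. With no filter, 109 members were fitted and the smallest adjusted p was 0.148. Over all sequences the 12 calls became 22 with the replicate block, 35 when p was left unadjusted and 26 with the adjusted threshold at 0.1, and 5 to 25 without 1 library (5 without epiBL replicate 3 or control replicate 2, 6 without control replicate 3, 7 without control replicate 1, 25 without epiBL replicate 2). Why the block and single libraries alter the count: the cause was not tested. Same-numbered libraries had correlations of -0.094, 0.14 and -0.11 in their deviations, and 2 of 6 were closest to the library of their number. With 3 libraries in each group these values cannot decide whether replicate numbers were pairs. The median log2 fold change of members was -0.18 with total counts only, where that of all sequences was -0.13, and -0.0813 to 0.0180 without 1 library. Members with a read in every library were 55. Uncalled members changed sign as follows. miR447a-3p was 0.0125 with RLE size factors and 0.0125 in DESeq2, 0.0040 with 10 counts in every library, and -0.0813 to 0.12 without 1 library. miR829-5p was 0.0081 with RLE size factors, 0.0097 in DESeq2, 0.00023 with 10 counts in every library, and -0.16 to 0.0881 without 1 library. miR824-5p was -0.12 with total counts only, -0.0262 with upper-quartile factors, -0.0086 in limma-trend, -0.0048 with the replicate block, and -0.12 to 0.10 without 1 library. miR823-3p was -0.0708 with total counts only, and miR781a/b-5p ranged from -0.16 to 0.0639 without 1 library. miR773a-3p ranged from -0.55 to 0.11 and miR8175-3p from -0.0160 to 0.28 without 1 library. The other 246 estimates, for 20 tested members (18 named by the rule, miR773a-3p and miR8175-3p), kept the main sign, and 0 of them passed the threshold. The share of all counts in members, epiBL minus control, stayed between -0.0555 and -0.0287 percentage points without 1 library. Among pairs with a member, 0 arm ratios were called with counts plus 5, with the replicate block or without 1 library. In the main fit 2.22% of all 45 pairs were called. Depth limits the rarest members, since 3 reads are 1.68 CPM in epiBL replicate 3.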
